A study of Mus musculus with 83 samples.

Results

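The subcortical maternal complex is a protein assembly that mammalian oocytes store under their surface for use by the early embryo. This account follows its 6 genes Nlrp5, Ooep, Tle6, Khdc3, Padi6 and Zbed3, and the oocyte Nlrp genes Nlrp2, Nlrp4f and Nlrp14, in single mouse embryos. The 9 genes were chosen by name, and all 9 were present among the 23845 genes measured. Polyadenylated RNA was sequenced from 21 morulae and 18 4-cell embryos sired by heat-exposed males and from 22 morulae and 16 4-cell embryos sired by control males. The fathers of all 4 groups were 8 to 12 weeks old, and both conditions lasted 7 days. The exposed fathers were kept in cycled heat, with a daily warm phase of 35 °C for 8 h and a cooler phase of 25 °C for 16 h. The control fathers were sham-treated and kept at 21 °C throughout. No agent, transgene or mutation is named for any of the 4 groups, and no label names the father, mother or litter of an embryo. Embryos of 1 group may therefore share a parent, and the p-values measure the spread between embryos only.

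As background, transcripts of the complex are made in the growing oocyte, and most stored maternal transcripts are cleared in mice around the time the embryonic genome becomes active. The proteins last longer than the transcripts: the complex stays in the outer cortex of the blastomeres, is excluded from cell contacts and persists in the outer cells of later stages. Loss of Nlrp5, Ooep, Tle6 or Padi6 in the mother stops mouse embryos at early cleavage, while loss of Khdc3 delays cleavage and disturbs chromosome segregation. Ooep and Khdc3 encode RNA-binding-type KH-domain proteins, Tle6 a protein related to the Groucho corepressors, Padi6 a peptidylarginine deiminase family member needed for the oocyte cytoplasmic lattices, and Zbed3 a zinc finger protein tied to spindle position. The Nlrp genes encode leucine-rich-repeat proteins of the NLR family, and several of them are expressed mainly in oocytes.

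The 9 genes did not move as 1 group between the stages. Transcripts of the KH-domain genes Khdc3 and Ooep were higher in morulae than in 4-cell embryos, in heat-sired and in control-sired embryos alike. Zbed3 was lower in morulae in both paternal groups, and Tle6, Padi6 and Nlrp14 were lower in morulae in both but passed every part of the test in heat-sired embryos only, a difference between paternal groups that is tested below. Nlrp5, Nlrp4f and Nlrp2 were near the floor of the measurement. Between heat-sired and control-sired embryos, 6 of the 9 genes were tested at the 4-cell stage and 3 in morulae. None of them was called, and neither was any other gene tested.

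All levels are deposited TPM values, which are transcript shares corrected for length and scaled to the same sum in every embryo. In a whole embryo a higher share does not tell more of a transcript from less of the other RNA, and fewer expressing cells cannot be told apart from less RNA per cell. Stage differences were tested with limma on log2(TPM + 1). A gene was called where the adjusted p (Benjamini-Hochberg over all genes tested) was under 0.05 and the log2 difference was at least 1 in size, and comparisons of the fathers needed the adjusted p alone. Genes entered a test if at least 1 of the groups in it had 50% or more of its embryos at 1 TPM or above. In a stage test, a gene that met this at 1 stage alone entered where it is high, which favours a difference towards that stage. Of the 9 genes, 6 entered the stage tests, the 4-cell test of paternal heat and the interaction, and 3 (Khdc3, Ooep and Padi6) entered the morula test of paternal heat.

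Among 8430 genes tested in heat-sired embryos, 14.8% fell and 18.6% rose in morulae by that rule, and of the 6 tested complex and Nlrp genes 4 fell and 2 rose. In control-sired embryos 11.4% of 8148 genes fell and 20.6% rose, and of the same 6 genes 1 fell and 2 rose. The median log2 difference over all tested genes was 0.02 in heat-sired and 0.18 in control-sired embryos. Every one of the 6 had an unadjusted p under 0.05 in both fits, against 56.3% of all tested genes in heat-sired embryos and 52.4% in control-sired embryos. Tle6, Zbed3 and Nlrp14 entered through 4-cell embryos alone, so their falls were favoured by the filter. At 1 TPM or above were 9 of 21 heat-sired and 10 of 22 control-sired morulae for Tle6. The numbers were 6 and 10 for Zbed3, and 1 and 1 for Nlrp14.

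The stretches of 250 bases before the annotated start are printed for the 2 genes that rose, Khdc3 and Ooep, and for Padi6 and Zbed3, which were lower in morulae, because the genes of 1 protein complex had opposite stage differences. The sequences come from RefSeq (GRCm38.p6), read 5′ to 3′ towards the gene, and end at the base before the start that its promoter table lists. For Khdc3 that start lies inside the wider gene span given with its levels, so its stretch is within that span, while the other 3 stretches lie outside their gene's span. Capitals mark matches on either strand to CANNTG, the E-box bound by oocyte factors such as FIGLA, to TAATTG, an element of the oocyte homeobox factor NOBOX, to TATAAA, and to CCAAT, the core of the element bound by NF-Y. For Zbed3, which has 3 annotated starts, the stretch before the outermost is shown.
Khdc3, chr9:73102148-73102397, plus strand: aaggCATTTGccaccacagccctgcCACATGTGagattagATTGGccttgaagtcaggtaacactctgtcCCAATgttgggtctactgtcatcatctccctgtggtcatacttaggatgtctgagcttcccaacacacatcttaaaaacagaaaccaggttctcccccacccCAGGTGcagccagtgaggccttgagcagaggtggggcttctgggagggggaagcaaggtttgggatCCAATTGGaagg
Ooep, chr9:78378589-78378838, minus strand: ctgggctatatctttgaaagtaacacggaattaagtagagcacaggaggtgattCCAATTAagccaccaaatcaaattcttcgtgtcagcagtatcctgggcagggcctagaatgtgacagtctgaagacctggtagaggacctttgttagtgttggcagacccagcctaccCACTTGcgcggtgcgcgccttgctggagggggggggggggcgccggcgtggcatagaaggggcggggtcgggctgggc
Padi6, chr4:140742644-140742893, minus strand: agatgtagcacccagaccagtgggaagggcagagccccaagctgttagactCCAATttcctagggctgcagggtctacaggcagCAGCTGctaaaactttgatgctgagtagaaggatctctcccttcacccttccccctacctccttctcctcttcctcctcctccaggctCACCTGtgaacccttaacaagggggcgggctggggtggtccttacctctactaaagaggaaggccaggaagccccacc
Zbed3, chr13:95323355-95323604, plus strand: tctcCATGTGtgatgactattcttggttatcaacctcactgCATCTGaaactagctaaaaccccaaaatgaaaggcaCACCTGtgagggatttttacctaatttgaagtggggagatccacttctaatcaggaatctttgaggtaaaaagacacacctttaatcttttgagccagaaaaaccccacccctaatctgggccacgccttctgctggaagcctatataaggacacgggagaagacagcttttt
The Khdc3 stretch held 5 E-box matches, 4 CCAAT matches and 0 CpG dinucleotides. Over 32851 stretches of the same length, 66.2% held an E-box match and 1.15% held at least 5, while 33.8% held a CCAAT match and 0.84% at least 4. The cut-offs of 5 and 4 were set at the counts of Khdc3 itself, so these shares are descriptive and test nothing. Near its end CCAATTGG is read as CCAAT on both strands and holds the E-box form CAATTG, so those matches share bases, as do a pair of E-box matches in CACATGTG. The Ooep stretch held 1 E-box match, 11 CpG dinucleotides and 1 match to the NOBOX element, on the opposite strand and overlapping its 1 CCAAT match. The NOBOX element was held by 7.17% of all stretches. The Padi6 stretch held 2 E-box matches and 1 CCAAT match, and the Zbed3 stretch 3 E-box matches and 0 CCAAT matches. None of these 4 held TATAAA, which 12.4% of all stretches held, and the median stretch had 6 CpG dinucleotides. Only exact letters were counted, so near forms of TATAAA were missed. The stretch before another annotated start of Zbed3, not printed, held 1 match to TATAAA. A match is a description of letters, and its part in the levels was not tested.

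Khdc3, also known as Filia, was the most abundant of the 9 genes in every group. It lies on chromosome 9 at 73101381 to 73106631 (GRCm38.p6, as for all positions here) and was above 0 in all 77 embryos. In heat-sired embryos its level ran from 172.9 to 2837 TPM in morulae with a median of 1415 TPM, against 17.7 to 382.9 TPM with a median of 133.7 TPM at the 4-cell stage. In control-sired embryos it ran from 35.88 to 2311 TPM in morulae with a median of 938.8 TPM, against 8.77 to 417.1 TPM with a median of 80.31 TPM at the 4-cell stage. The stages overlapped little: 18 of 21 heat-sired morulae lay above the highest heat-sired 4-cell embryo, and 15 of 22 control-sired morulae above the highest control-sired 4-cell embryo. The morula medians were 10.6-fold the 4-cell median in heat-sired embryos and 11.7-fold in control-sired embryos.

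In limma's test Khdc3 rose by a log2 difference of 2.98 (SE 0.34, adjusted p 1.168e-09) in heat-sired embryos and 2.96 (SE 0.49, 95% interval 1.97 to 3.95, adjusted p 3.807e-06) in control-sired embryos. Morulae also had more detected genes, with medians of 11283 in heat-sired and 10774 in control-sired morulae against 8997 and 8260 in heat-sired and control-sired 4-cell embryos. With that detected-gene number as a covariate the log2 differences of Khdc3 were smaller, 1.38 in heat-sired and 1.16 in control-sired embryos, with limma adjusted p of 0.0062 and 0.017, and both remained calls. Among genes with a median above 0, Khdc3 ranked 141 of 10830 in heat-sired morulae and 219 of 10540 in control-sired morulae, against 996 of 8860 and 1247 of 8363 in the heat-sired and control-sired 4-cell embryos. The 9 genes together summed to a median of 1436 TPM in heat-sired morulae and 1006 TPM in control-sired morulae, of which Khdc3 made up a median of 97.8% and 96%. At the 4-cell stage the sum had a median of 185.9 TPM in heat-sired and 119.4 TPM in control-sired embryos, and the Khdc3 share a median of 73.3% and 79.3%.

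Ooep, also known as Floped, encodes the KH-domain partner without which the complex does not form in mouse eggs. It lies on chromosome 9 at 78376903 to 78378588. In heat-sired embryos it ran from 3.94 to 31.89 TPM in morulae with a median of 17.97 TPM, against 0 to 20.9 TPM with a median of 3.075 TPM at the 4-cell stage. In control-sired embryos it ran from 4.58 to 79.49 TPM in morulae with a median of 15.1 TPM, against 0 to 43.16 TPM with a median of 5.585 TPM at the 4-cell stage. All 21 heat-sired morulae and 21 of 22 control-sired morulae lay above the 4-cell median of their own paternal group, but only 8 and 2 of them above its highest 4-cell embryo. Ooep rose in limma's test by a log2 difference of 1.89 (SE 0.35, adjusted p 2.16e-05) in heat-sired embryos and 1.59 (SE 0.40, adjusted p 0.001106) in control-sired embryos. With a pseudocount of 10 in place of 1 the Ooep differences were 0.81 in heat-sired and 0.73 in control-sired embryos, under the size limit.

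**Figure D1:**
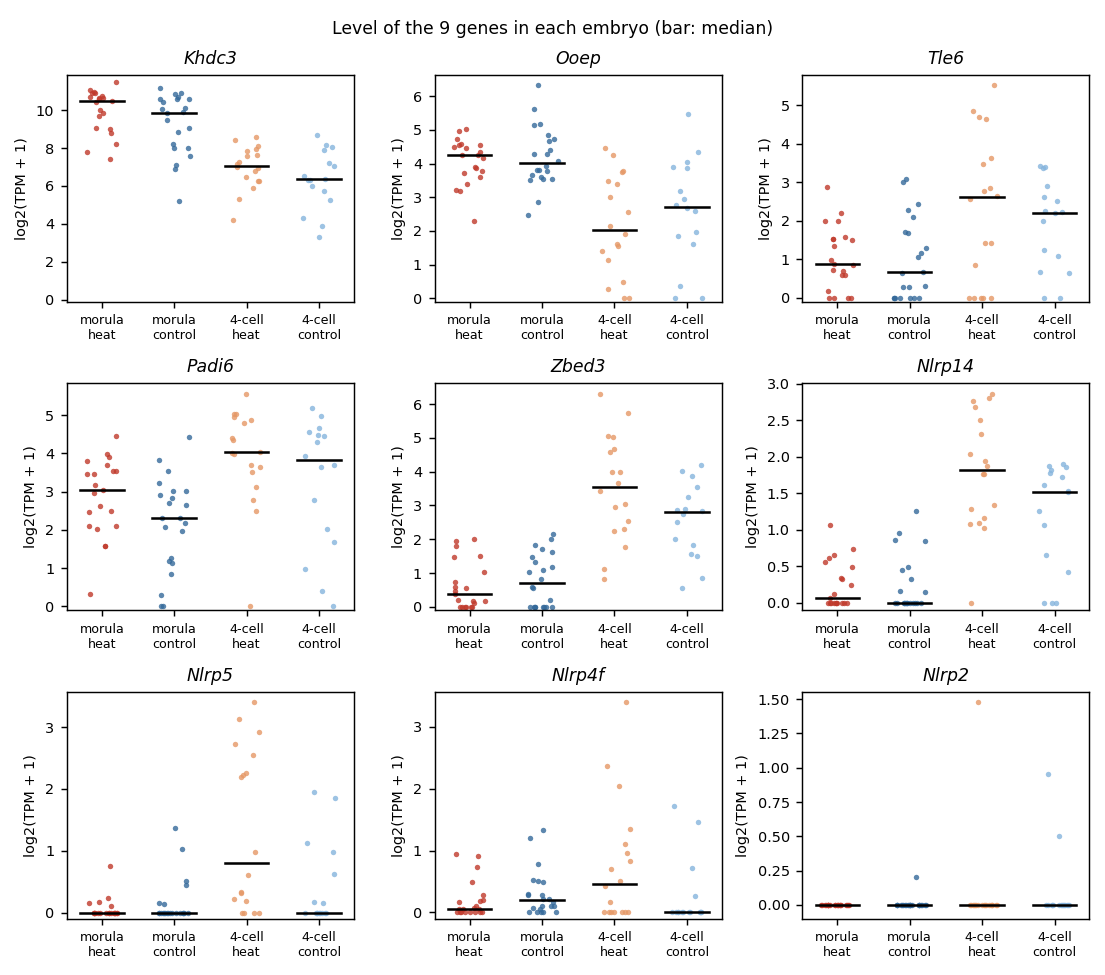
Level of the 9 genes in each of 77 embryos as log2(TPM + 1), 1 panel a gene with its own vertical scale, with groups on the horizontal axis and a bar at each median. Khdc3 and Ooep sit higher in morulae, Zbed3, Nlrp14, Padi6 and Tle6 sit lower, and Nlrp2 is at 0 in nearly all embryos.

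Zbed3, on chromosome 13 at 95323605 to 95337842, had the largest fall of the 6 tested genes in both paternal groups. In heat-sired embryos it ran from 0 to 3.05 TPM in morulae with a median of 0.29 TPM, against 0.76 to 78.38 TPM with a median of 10.65 TPM at the 4-cell stage. In control-sired embryos it ran from 0 to 3.48 TPM in morulae with a median of 0.635 TPM, against 0.48 to 17.21 TPM with a median of 5.955 TPM at the 4-cell stage. Every morula lay below the 4-cell median of its own paternal group, and 15 of 21 heat-sired and 9 of 22 control-sired morulae lay below its lowest 4-cell embryo. The limma log2 difference was -2.89 (SE 0.37, adjusted p 1.486e-08) in heat-sired embryos and -1.76 (SE 0.30, adjusted p 7.983e-06) in control-sired embryos. With a pseudocount of 10 the differences of Zbed3 were -1.11 in heat-sired embryos, still a call, and -0.54 in control-sired embryos, under the size limit; with one of 0.1 they were -4.54 and -3.13.

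Tle6, on chromosome 10 at 81590904 to 81601185, and Padi6, on chromosome 4 at 140727355 to 140742643, were lower in morulae with wider overlap. Tle6 ran from 0 to 6.31 TPM in heat-sired morulae with a median of 0.83 TPM, against 0 to 44.97 TPM with a median of 5.125 TPM in heat-sired 4-cell embryos. In control-sired embryos Tle6 ran from 0 to 7.51 TPM in morulae with a median of 0.58 TPM, against 0 to 9.71 TPM with a median of 3.64 TPM at the 4-cell stage. Its log2 difference was -1.25 (SE 0.44, limma adjusted p 0.01529) in heat-sired embryos and -0.91 (SE 0.35, limma adjusted p 0.032) in control-sired embryos, where it missed the size limit. With array weights the heat-sired difference of Tle6 was -0.99, under that limit, either other pseudocount also ended the call, and with detected-gene number as a covariate it was -2.21.

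Padi6 ran from 0.26 to 21.01 TPM in heat-sired morulae with a median of 7.25 TPM, against 0 to 46.21 TPM with a median of 15.27 TPM in heat-sired 4-cell embryos. In control-sired embryos Padi6 ran from 0 to 20.53 TPM in morulae with a median of 3.96 TPM, against 0 to 35.55 TPM with a median of 13.11 TPM at the 4-cell stage. In each paternal group 20 morulae lay below the 4-cell median of Padi6. Its log2 difference was -1.03 (SE 0.36, limma adjusted p 0.01554) in heat-sired embryos and -1.07 (SE 0.46, limma adjusted p 0.05386) in control-sired embryos, 1 on each side of the threshold at nearly the same size. Median-of-ratios scaling, quantile normalization or a pseudocount of 0.1 or 10 ended the heat-sired call, and with detected-gene number as a covariate the differences of Padi6 were -2.42 in heat-sired and -2.74 in control-sired embryos.

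Nlrp14, on chromosome 7 at 107113455 to 107198103, a germ-cell member of the NLR family that is needed for early cleavage in mice, was low throughout. In heat-sired embryos it ran from 0 to 1.1 TPM in morulae with a median of 0.05 TPM, against 0 to 6.29 TPM with a median of 2.535 TPM at the 4-cell stage. In control-sired embryos it ran from 0 to 1.4 TPM in morulae with a median of 0 TPM, against 0 to 2.75 TPM with a median of 1.875 TPM at the 4-cell stage. All 21 heat-sired and all 22 control-sired morulae lay below their 4-cell median. The log2 difference of Nlrp14 was -1.55 (SE 0.20, limma adjusted p 1.777e-08) in heat-sired embryos and -0.94 (SE 0.19, limma adjusted p 8.407e-05) in control-sired embryos, where it missed the size limit. The control-sired difference passed that limit in 5 alternatives, at -2.35 with a pseudocount of 0.1 and between -1.17 and -1.09 with quantile normalization, without ribosomal protein genes, with the detected-gene covariate or with array weights. With a pseudocount of 10 the heat-sired call of Nlrp14 was lost, at -0.33.

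The other 3 genes did not pass the filter on low values. Nlrp5, also known as Mater, the NLR protein in the core of the complex, lies on chromosome 7 at 23385889 to 23441923 and was above 0 in 5 of 21 heat-sired and 6 of 22 control-sired morulae, and in 14 of 18 heat-sired and 7 of 16 control-sired 4-cell embryos. Its highest values were 0.68 TPM in heat-sired morulae, 1.58 TPM in control-sired morulae, 9.59 TPM in heat-sired 4-cell embryos and 2.87 TPM in control-sired 4-cell embryos. Without the filter, Nlrp5 had a log2 stage difference of -1.27 (SE 0.28, limma adjusted p 0.0003775) in heat-sired embryos and -0.26 (SE 0.17, limma adjusted p 0.2432) in control-sired embryos. Its median was 0 TPM in both groups of morulae, where Khdc3 was among the most abundant of all transcripts.

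Nlrp4f, an oocyte NLR gene on chromosome 13 at 65177111 to 65205716, was above 0 in 13 of 21 heat-sired and 17 of 22 control-sired morulae, and in 11 of 18 heat-sired and 4 of 16 control-sired 4-cell embryos, with a highest value of 9.54 TPM in a heat-sired 4-cell embryo. Nlrp2, another oocyte NLR gene, on chromosome 7 at 5298547 to 5351035, was above 0 in 0 heat-sired and 1 control-sired morula, and in 1 heat-sired and 2 control-sired 4-cell embryos, with a highest value of 1.79 TPM in a heat-sired 4-cell embryo. The Nlrp4 genes are close relatives, and the rule that assigned shared reads to them is not stated, so values of Nlrp4f and Nlrp4c are uncertain. The housekeeping genes Polr2a and Tbp were listed at 0 in 1 and 2 of 77 embryos, so a value of 0 can be a missed transcript.

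In order of the group medians, Khdc3 was followed in morulae by Ooep and Padi6 in both paternal groups, with all others under 1 TPM. In 4-cell embryos Khdc3 was followed by Padi6, then by Zbed3, Tle6, Ooep and Nlrp14 in heat-sired embryos and by Zbed3, Ooep, Tle6 and Nlrp14 in control-sired embryos. Below Khdc3 the interquartile ranges of all neighbours in the 4-cell orders overlapped, so those orders are within the spread between embryos, while those of Ooep and Padi6 did not overlap in morulae. Within single embryos the balance of the KH-domain genes to the other subunits differed by stage. Ooep was above Tle6 in 21 of 21 heat-sired and 22 of 22 control-sired morulae, but in 6 of 18 heat-sired and 10 of 16 control-sired 4-cell embryos. The median of log2(TPM + 1) of Khdc3 minus that of Zbed3 within an embryo was 9.63 in heat-sired and 8.54 in control-sired morulae, against 3.93 and 4.14 in heat-sired and control-sired 4-cell embryos. Khdc3 minus Ooep shifted less, with medians of 6.19 and 5.33 in heat-sired and control-sired morulae and 4.97 and 3.97 in heat-sired and control-sired 4-cell embryos.

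Paternal heat was compared at each stage to ask whether the father's exposure altered these transcripts. Of 7322 genes tested at the 4-cell stage 0% were called by limma, with 842 at an unadjusted p under 0.05, and of the 6 complex and Nlrp genes 0 were called and 2 had an unadjusted p under 0.05. Of 7897 genes tested in morulae 0% were called by limma, with 478 at an unadjusted p under 0.05, and of the 3 tested complex genes 0 were called and 1 had an unadjusted p under 0.05. Most genes leaned the same way: 74.1% of all tested genes were higher in heat-sired 4-cell embryos, with a median log2 difference of 0.26, and 67.8% were higher in heat-sired morulae, with a median of 0.13.

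At the 4-cell stage the heat minus control log2 differences were 0.95 for Zbed3 (95% interval 0.02 to 1.87, limma adjusted p 0.4248), 0.61 for Nlrp14 (95% interval 0.04 to 1.17, limma adjusted p 0.4042) and 0.67 for Padi6 (95% interval -0.33 to 1.67, limma adjusted p 0.5683). They were 0.66 for Khdc3 (95% interval -0.22 to 1.55, limma adjusted p 0.5199), 0.39 for Tle6 (95% interval -0.68 to 1.46, limma adjusted p 0.7551) and -0.42 for Ooep (95% interval -1.45 to 0.60, limma adjusted p 0.7139). The intervals leave room for differences of more than 1 log2 unit, so alike levels were not shown. For Zbed3 6 of 18, for Nlrp14 8 of 18 and for Tle6 6 of 18 heat-sired 4-cell embryos lay above every control-sired 4-cell embryo. For these genes 12, 11 and 10 of 18 lay above the control median. For Khdc3, Ooep and Padi6 0, 0 and 1 of 18 lay above every control-sired 4-cell embryo, and 13, 7 and 11 above the control median. Such counts were not made over all genes. Nlrp5, which failed the filter, was above every control-sired 4-cell embryo in 8 of 18 heat-sired ones, and without the filter its log2 difference was 0.91 (95% interval 0.19 to 1.63, limma unadjusted p 0.01521, adjusted p 0.626). Quantile normalization left the Tle6 difference at -0.009001, on the other side of 0.

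In morulae the heat minus control log2 difference was 0.70 for Padi6 (95% interval 0.03 to 1.38, limma adjusted p 0.7947), 0.68 for Khdc3 (95% interval -0.13 to 1.495, limma adjusted p 0.7947) and -0.12 for Ooep (95% interval -0.61 to 0.38, limma adjusted p 0.9163). For Padi6 15, for Khdc3 13 and for Ooep 12 of 21 heat-sired morulae lay above the control median. Heat-sired morulae also had more detected genes, 10951 ± 855 (SD, n = 21) against 10299 ± 1411 (SD, n = 22) in control-sired morulae, and with that number as a covariate the Khdc3 difference in morulae was 0.095. At the 4-cell stage the numbers were 8877 ± 979 (SD, n = 18) in heat-sired and 8359 ± 1098 (SD, n = 16) in control-sired embryos, and the Khdc3 difference with the covariate was 0.23. In the interaction, which asks whether the stage difference depends on the father, 0% of 8689 genes were called by limma, with 458 at an unadjusted p under 0.05, and of the 6 genes 0 were called and 2 had an unadjusted p under 0.05. Those were Zbed3, with a log2 interaction of -1.12 (95% interval -2.08 to -0.16, limma adjusted p 0.9265), and Nlrp14, with -0.60 (95% interval -1.14 to -0.07, limma adjusted p 0.9314). Without the filter Nlrp5 had a log2 interaction of -1.01 (95% interval -1.66 to -0.35, limma unadjusted p 0.003129, adjusted p 0.9494), the smallest unadjusted p of the 9 genes in that fit. Stage calls made in heat-sired embryos alone, as for Tle6, Padi6 and Nlrp14, were therefore not shown to be particular to them.

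**Figure D2:**
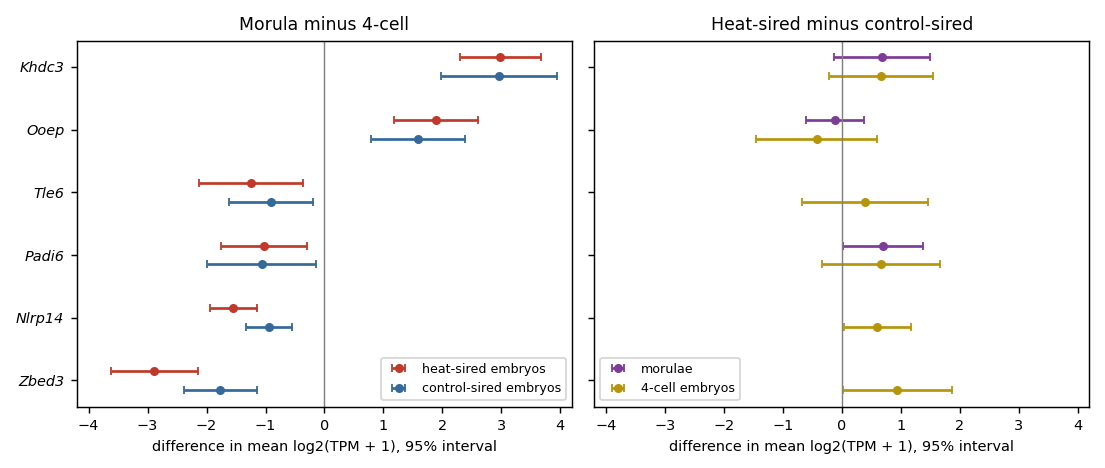
Differences in mean log2(TPM + 1) for the 6 tested genes with 95% intervals from limma, morula minus 4-cell on the left and heat-sired minus control-sired on the right. On the left the intervals of Khdc3 and Ooep lie above 0 and those of the other 4 genes below 0 in both paternal groups, while Zbed3, Nlrp14 and Padi6 on the right have 1 interval each that only just excludes 0 before adjustment.

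Levels also varied among embryos of 1 stage. Relations were computed on log2(TPM + 1) after each paternal group was centred on its mean, for 27 pairs of genes, or of a gene and the number of detected genes, with permutation tests of 100000 resamples and Benjamini-Hochberg adjustment over the 27. In 43 morulae Khdc3 rose with the number of detected genes (Pearson's r 0.757, adjusted permutation p 0.000135; Spearman's rho 0.842, adjusted permutation p 0.000135), and r was 0.76 without the 2 embryos farthest from the median. In 34 4-cell embryos the same relation had r 0.643 and rho 0.62, with adjusted permutation p of 0.000432 and 0.00101, and r was 0.637 without the 2 farthest. Padi6 went with the number of detected genes as well, with r 0.645 and rho 0.586 in morulae (adjusted permutation p 0.00018 and 0.00099; r 0.623 without the 2 farthest) and r 0.757 and rho 0.743 at the 4-cell stage (adjusted permutation p 0.000135 for both; r 0.687 without the 2 farthest). At the 4-cell stage Tle6 passed by r but not by rho (r 0.406 and rho 0.304, adjusted permutation p 0.0434 and 0.159; r 0.343 without the 2 farthest), and Zbed3 by rho but not by r (r 0.384 and rho 0.432, adjusted permutation p 0.0618 and 0.0312; r 0.373 without the 2 farthest). Nlrp14 passed by neither (r 0.365 and rho 0.3, adjusted permutation p 0.0816 and 0.159; r 0.188 without the 2 farthest). Ooep passed by neither at either stage, with r -0.183 and rho -0.113 in morulae (adjusted permutation p 0.369 and 0.518) and r 0.0331 and rho 0.0521 at the 4-cell stage (adjusted permutation p 0.861 and 0.804).

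**Figure D3:**
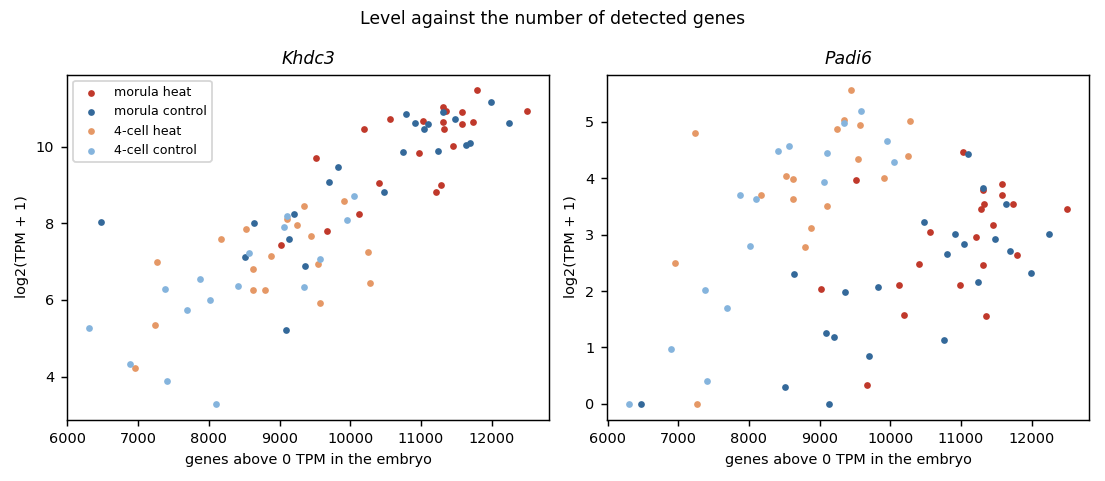
Level of Khdc3 and Padi6 in each embryo as log2(TPM + 1) against the number of genes above 0 TPM in that embryo, coloured by group. Both genes run higher in embryos with more detected genes within each stage, and the stages form separate clouds for Padi6 and 1 rising band for Khdc3.

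Some pairs of genes also went together. Khdc3 and Padi6 had r 0.58 and rho 0.539 in morulae (adjusted permutation p 0.00045 and 0.00151; r 0.589 without the 2 farthest), and r was 0.183 given the number of detected genes. At the 4-cell stage they had r 0.481 and rho 0.521 (adjusted permutation p 0.0224 and 0.00855; r 0.532 without the 2 farthest), and r was -0.0131 given that number. Khdc3 and Nlrp14 had r 0.669 and rho 0.58 in 34 4-cell embryos (adjusted permutation p 0.000202 and 0.00211; r 0.549 without the 2 farthest) and r 0.61 given that number. Ooep passed the threshold with none of the 5 other tested genes at the 4-cell stage, nor with Khdc3 or Padi6 in morulae. At the 4-cell stage Padi6 also passed with Zbed3 (r 0.473, rho 0.491, adjusted permutation p 0.0129 and 0.00855; r 0.469 without the 2 farthest, 0.302 given detected genes) and with Nlrp14 (r 0.436, rho 0.509, adjusted permutation p 0.0339 and 0.00855; r 0.653 without the 2 farthest, 0.262 given detected genes).

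For each tested gene the 2 genes with the smallest root-mean-square difference in centred log2(TPM + 1) over all 77 embryos were taken as most alike. For Khdc3 these were Prdx6, a peroxiredoxin, at 0.926, and Tuba4a, an alpha-tubulin, at 0.963, against a median of 2.03 over 8688 genes. Both rose in both paternal groups, Prdx6 to medians of 320 TPM in heat-sired and 263.5 TPM in control-sired morulae, against 101.4 and 66.4 TPM in heat-sired and control-sired 4-cell embryos. For Ooep they were Fuom, which encodes fucose mutarotase, and Fth1, the ferritin heavy chain, both at 1.14 against a median of 1.81. For Zbed3 they were the DNA repair gene Brca2 at 1.01 and Pkd2l2 at 1.03, and for Nlrp14 the ubiquitin protease gene Usp16 and Nhp2l1, both at 0.62. For Tle6 they were Parp9 and Clmp, both at 1.05, and for Padi6 Gtpbp4 at 0.974 and Pcyt1a at 0.992. These are likenesses of pattern over embryos that share stage and detection.

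The KH-domain relatives of Khdc3 and Ooep divided by stage in the same samples. Khdc1a, Khdc1b and Khdc1c, neighbours on chromosome 1, fell in both paternal groups, with log2 differences of -1.56, -2.69 and -1.59 in heat-sired and -1.48, -2.38 and -1.64 in control-sired embryos (limma adjusted p at most 3.955e-07). Khdc1b ran from 0.67 to 10.71 TPM in heat-sired morulae, against 11.57 to 169.4 TPM in heat-sired 4-cell embryos, with no overlap. In control-sired embryos Khdc1b ran from 1.13 to 14.66 TPM in morulae, against 6.26 to 51.43 TPM at the 4-cell stage, with some overlap. Dppa5a, which encodes a KH-domain protein of pluripotent cells, lies 8703 bases from Ooep on chromosome 9 with no protein-coding gene annotated between them. It was far more abundant, with medians of 10340 TPM in heat-sired and 10500 TPM in control-sired morulae against 7922 and 8490 TPM in heat-sired and control-sired 4-cell embryos, and its log2 differences of 0.43 and 0.27 in heat-sired and control-sired embryos were under the size limit. The 3 Khdc1 genes are close paralogs that may share reads, so their separate values are uncertain.

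**Figure D4:**
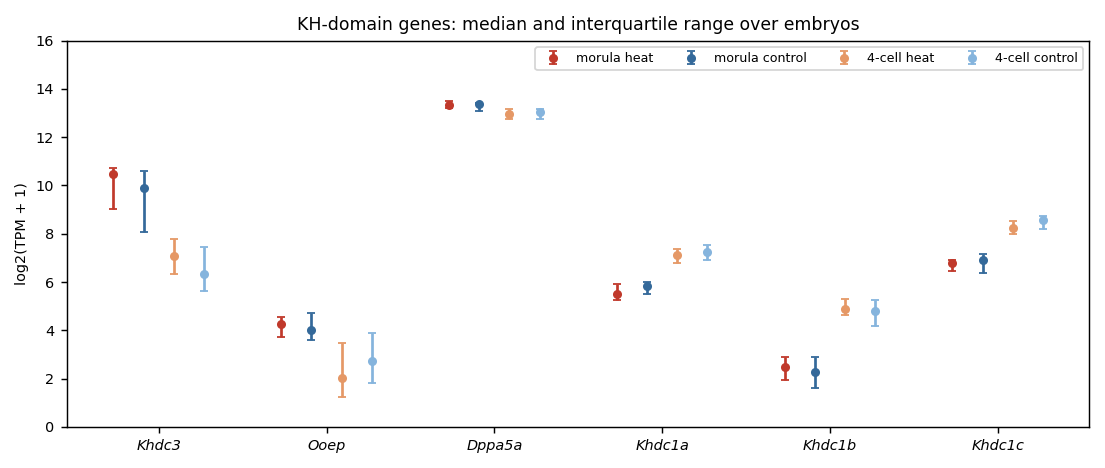
Median and interquartile range over embryos of log2(TPM + 1) for 6 KH-domain genes, with the 4 groups side by side at each gene. Khdc3 and Ooep are higher in morulae, Khdc1a, Khdc1b and Khdc1c are lower, and Dppa5a has the highest median in each group, between 7922 and 10500 TPM.

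The wider list of relatives (KH, Tle, Padi and Zbed genes) held 16 genes in the data, of which 8 were tested. In control-sired embryos 0 rose and 3 fell, the 3 Khdc1 genes, with a list median log2 difference of -0.52. In heat-sired embryos 1 rose and 3 fell, with a list median of -0.69; the gene that rose, named after its value was seen, was the Groucho relative Aes at 1.04 (limma adjusted p 0.01119), against 0.03 in control-sired embryos. Beside these counts, 18.6% of all tested genes rose and 14.8% fell in heat-sired embryos, and 20.6% rose and 11.4% fell in control-sired embryos. Of the 16 other Nlrp genes 14 had a value above 0 in some embryo and 2 were tested. Nlrp4c rose in both paternal groups, by a log2 difference of 1.13 in heat-sired and 1.61 in control-sired embryos, with medians of 1.29 TPM in heat-sired and 2.435 TPM in control-sired morulae against 0 TPM in both 4-cell groups. Nlrp12 fell in control-sired embryos (-1.16, limma adjusted p 0.0004182) and had -0.92 in heat-sired embryos. Nlrp4c entered the stage tests through morulae alone and Nlrp12 through 4-cell embryos alone. Among the tested Nlrp genes, Nlrp4c was higher in morulae, while Nlrp12 and Nlrp14 were lower. All of these levels were low, the filter favoured each direction, and the value of Nlrp4c is uncertain, as stated above.

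Of 7 partners and ligands of the complex, 6 were tested. The DNA methylation factor gene Uhrf1, whose protein is held in the cytoplasm in mouse oocytes with NLRP proteins, rose in heat-sired embryos (log2 difference 1.01, limma adjusted p 0.01545) and had 0.40 (limma adjusted p 0.3515) in control-sired embryos, so 1 of 6 rose in heat-sired and 0 in control-sired embryos, beside 18.6% and 20.6% of all tested genes; Uhrf1 was named after its value was seen. Uhrf1 entered the stage tests through morulae alone. The list median was 0.21 in heat-sired and 0.37 in control-sired embryos. Dppa3, or Stella, which encodes a partner of UHRF1, stayed among the most abundant transcripts, with medians of 10830 TPM in heat-sired and 12660 TPM in control-sired morulae against 17100 and 17980 TPM in heat-sired and control-sired 4-cell embryos. Of 8 genes on a list of transcription factors of oocytes, not all of them particular to oocytes, 3 were tested. The list medians were -1.65 in heat-sired and -0.83 in control-sired embryos. Gata4 fell in both paternal groups (-2.76 in heat-sired and -2.47 in control-sired embryos), and Taf4b fell in heat-sired embryos (-1.65) and had -0.83 in control-sired embryos. Both entered through 4-cell embryos alone. Foxo3 did not fall, with 0.29 in heat-sired and 0.16 in control-sired embryos (limma adjusted p 0.4794 and 0.7571). So 2 of 3 fell in heat-sired and 1 of 3 in control-sired embryos, beside 14.8% and 11.4% of all tested genes. Sohlh2, which was not tested, was above 0 in 15 of 21 heat-sired and 14 of 22 control-sired morulae. It was above 0 in 0 of 18 heat-sired and 1 of 16 control-sired 4-cell embryos. Nobox, Figla, Lhx8 and Sohlh1, which encode the factors best known for driving oocyte genes, had a median of 0 TPM in every group.

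Other genes listed as maternal-effect genes were also counted, on a list chosen by name that does not separate stored from embryonic transcripts. Of 33 such genes present, 24 were tested in heat-sired embryos, where 12 fell and 0 rose with a list median log2 difference of -1.01, and 23 in control-sired embryos, where 11 fell and 0 rose with a list median of -0.97. Over all tested genes 14.8% fell and 18.6% rose in heat-sired embryos, with a median of 0.02, and 11.4% fell and 20.6% rose in control-sired embryos, with a median of 0.18. The largest falls in control-sired embryos were those of Omt2b, Omt2a and the nucleoplasmin gene Npm2. Of the genes that fell, Omt2a, Btg4, Gpr3, Gdf9 and Oosp1 entered through 4-cell embryos alone in both paternal groups. Omt2b and Dicer1 did so in heat-sired embryos. The filter favoured these falls, so the counts and list medians lean towards a fall. Npm2 had medians of 5.02 TPM in heat-sired and 3.635 TPM in control-sired morulae, against 74.32 and 90.86 TPM in heat-sired and control-sired 4-cell embryos, and limma log2 differences of -3.84 and -4.29 in heat-sired and control-sired embryos. Omt2b had log2 differences of -6.75 in heat-sired and -5.85 in control-sired embryos. For paternal heat, the lists of other Nlrp genes, partners, relatives, transcription factors and maternal-effect genes had 1, 5, 8, 3 and 23 genes tested at the 4-cell stage. In morulae they had 1, 6, 8, 1 and 19. None of these was called by limma at either stage, as was the case for all tested genes. At the 4-cell stage 1 of them had an unadjusted limma p under 0.05, beside 11.5% of all tested genes. In morulae 0 of them did, beside 6.05% of all tested genes.

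Most marker genes went with the stage labels: of 7 tested genes of outer morula cells 5 rose in both paternal groups, among them Krt8 and Cdx2, while Tead4 fell in control-sired embryos (log2 difference -1.28, limma adjusted p 0.02072; -0.58 in heat-sired embryos) and Tfap2c had -0.71 in heat-sired and -0.19 in control-sired embryos. Both tested genes of earlier stages, Obox6 and Klf17, fell in both paternal groups. Cdx2 and Gata3 in both paternal groups and Krt8 in control-sired embryos entered through morulae alone. Klf17 entered through 4-cell embryos alone in heat-sired embryos. The filter favoured the direction of these differences. Of 14 genes listed for cumulus and granulosa cells, which surround the oocyte and could carry over RNA, 13 had a median of 0 TPM in every group, and Foxl2, Has2 and Ptx3 were at 0 in all embryos. Their summed level ran from 0 to 9.68 TPM in heat-sired morulae, 0 to 13.12 TPM in control-sired morulae, 0.75 to 65.35 TPM in heat-sired 4-cell embryos and 0 to 10.77 TPM in control-sired 4-cell embryos. The exception was Pecam1, which is not particular to those cells and which mouse embryos also express, with medians of 5.525 TPM in heat-sired and 1.86 TPM in control-sired 4-cell embryos. Its highest value in a heat-sired 4-cell embryo was 64.59 TPM, near the highest sum of that group. All 6 sperm markers had a median of 0 TPM in every group. The 6 oocyte markers, all of them also on the list of maternal-effect genes above, summed to medians of 9.51 and 9.675 TPM in heat-sired and control-sired morulae, against 72.97 and 61.48 TPM in heat-sired and control-sired 4-cell embryos. Zp3 had the highest median of the 6 in every group. Its medians were 7.51 and 8.505 TPM in heat-sired and control-sired morulae, and 63.3 and 34.06 TPM in heat-sired and control-sired 4-cell embryos. Zp1 had a median of 0 TPM in every group.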

How the data were processed

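Single embryos were sequenced after capture of polyadenylated RNA, per the labels' protocols. The authors deposited TPM values for 23845 genes in 77 embryos. The build mm10 and the tools RSEM, Bowtie2 and Trimmomatic appear in the submitters' processing notes without version or role. TPM sums to 1000000 in every embryo and keeps no depth, so the reads behind a value are unknown. The 9 genes and all gene lists were chosen with earlier results of these data known.

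From the TPM values, log2(TPM + 1) was tested with limma 3.58.1 (R 4.3.3) and a mean-variance trend, 2-sided, on the groups compared only, except the interaction, which used all 4. The pseudocount understates changes of low genes. The fits were tested on simulated data. Alternatives changed the pseudocount, filter, scaling, covariate, weights and embryos used. Named genes were the 9, up to 3 in each direction from each list among calls in control-sired embryos, and the 2 genes most like each tested gene. Uhrf1, Aes, Taf4b, Foxo3, Dppa3, Dppa5a, Nobox, Figla, Lhx8, Sohlh1, Sohlh2, Btg4, Gpr3, Gdf9, Oosp1, Dicer1 and single marker and housekeeping genes were named outside that rule, after their values were seen. Sperm small RNA counts were not used here.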

Additional observations from a re-analysis of the deposited data

How the results depend on the processing

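No stage difference of the 6 tested genes changed direction under any of the 12 alternatives run. None of the 9 genes was called for paternal heat in any alternative where it was tested. The 1 gene that fell in control-sired embryos became 3 with log2(TPM + 0.1) or without ribosomal protein genes, 0 with log2(TPM + 10), 4 with quantile normalization, the detected-gene covariate or array weights, and 2 with all 77 embryos in 1 fit. That fit also called 8 lower and 18 higher genes for heat at the 4-cell stage and 1 of each in morulae, against 0 in the separate fits, with none of the 9 among them. The 4 that fell in heat-sired embryos became 2 with log2(TPM + 0.1), 1 with log2(TPM + 10), 3 with the TPM of at least 5 filter, median-of-ratios scaling, quantile normalization or array weights, and 5 without the filter, and the 2 that rose became 1 with log2(TPM + 10) in each paternal group, where Ooep lost its call. Which genes are called lower thus depends on the pseudocount, the scaling, the covariate, the weights and the filter. Over all genes, the covariate moved the median stage difference to -0.55 in heat-sired and -0.45 in control-sired embryos, and median-of-ratios scaling moved it to 0.25 and 0.28.

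Embryo numbers did not pair the embryos in general. The median correlation of same-numbered embryos was between -0.058 and 0.058 in the 4 comparisons, and at most 2 embryos in any comparison went best with their own number. Single pairs went higher: between heat-sired and control-sired morulae 6 of 21 same-numbered pairs were over 0.1, the highest at 0.736. The source of that likeness was not tested. With the replicate block 2 genes fell in control-sired embryos in place of 1, and the Khdc3 and Tle6 interactions became -0.378 and 0.052. Small differences that were never called changed sign, and the cause was not tested: the Tle6 difference at the 4-cell stage (-0.009001, quantile normalization), and the interactions of Tle6 (0.288 with log2(TPM + 0.1), 0.126 with array weights), Padi6 (-0.037 with log2(TPM + 10), -0.070 with the covariate, -0.090 without the 9 embryos with few detected genes) and Khdc3 (-0.096 with the covariate, -0.054 with array weights). TPM carries no depth, so levels under 1 TPM cannot be given a counting error.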
